A study of Mus musculus with 18 samples.

Results

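Transcripts of 30 marker genes of lymphocytes and macrophages were followed in whole liver, kidney and lung of mice that overexpress cyclin E1. The genes were taken by symbol from a fixed list, and all 30 were among the 24062 symbols of the count table. By role they fall into 6 T cell genes, 7 genes of cytotoxic lymphocytes and natural killer (NK) cells, 3 B cell genes, 5 genes of macrophages in general, 5 genes of tissue-resident macrophages, and 4 genes shared by leukocytes or by myeloid and dendritic cells. CCNE-TA mice carried a tetracycline-inducible Ccne1 transgene and the reverse tetracycline transactivator rtTA, and TA controls carried rtTA without the transgene. All mice were C57BL/6, received doxycycline from 3 weeks of age, when they were weaned, and were killed at 4 months, so the controls share the activator and the drug. The promoter that drives rtTA is not given in the sources used here. RNA of whole tissue was sequenced in 18 libraries, 3 of each genotype in each organ. The labels number the libraries but do not say that each came from a separate mouse, so the p-values measure the spread between these libraries.

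T cells read antigen through a receptor whose CD3 chains (Cd3d, Cd3e, Cd3g) carry the signal into the cell, with Cd4 or the CD8 chains Cd8a and Cd8b1 as coreceptors. Cytotoxic T cells and NK cells kill with granules that hold perforin (Prf1) and granzymes (Gzma, Gzmb). Macrophages settle in each organ under local signals. Those of the liver sinusoids, the Kupffer cells, carry Clec4f, Vsig4, Timd4, Marco and Cd163, while Trem2 and Itgax (the integrin CD11c) are known from macrophages that take up lipid and cell debris and, for Itgax, from dendritic cells and alveolar macrophages. In bulk RNA, fewer cells of a type and less RNA per cell cannot be told apart.

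The sequences below are shown because Trem2 and Itgax are the pair of members that rose in liver in every fit that left out a single library, and Vsig4 is a Kupffer cell member whose liver level overlapped between the genotypes. Each is the 250 bases before the RefSeq start site of the gene (GRCm38.p6, the mm10 build), read 5′ to 3′ on the gene's strand: chr17:48346151-48346400 on the plus strand for Trem2, chr7:128129300-128129549 on the plus strand for Itgax, and chrX:96293439-96293688 on the minus strand for Vsig4. Capitals mark GAGGAA (or TTCCTC on the other strand), a core bound by the myeloid factor PU.1, and TGANTCA, the AP-1 core, which reads the same on both strands.
Trem2: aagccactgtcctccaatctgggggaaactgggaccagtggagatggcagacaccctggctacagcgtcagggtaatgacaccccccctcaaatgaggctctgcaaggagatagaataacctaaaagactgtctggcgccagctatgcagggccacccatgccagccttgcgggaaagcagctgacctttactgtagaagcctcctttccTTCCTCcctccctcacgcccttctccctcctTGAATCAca
Itgax: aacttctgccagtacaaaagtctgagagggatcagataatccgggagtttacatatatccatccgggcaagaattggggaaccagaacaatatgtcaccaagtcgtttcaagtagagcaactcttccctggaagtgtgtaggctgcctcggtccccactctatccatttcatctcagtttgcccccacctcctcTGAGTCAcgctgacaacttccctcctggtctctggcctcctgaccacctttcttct
Vsig4: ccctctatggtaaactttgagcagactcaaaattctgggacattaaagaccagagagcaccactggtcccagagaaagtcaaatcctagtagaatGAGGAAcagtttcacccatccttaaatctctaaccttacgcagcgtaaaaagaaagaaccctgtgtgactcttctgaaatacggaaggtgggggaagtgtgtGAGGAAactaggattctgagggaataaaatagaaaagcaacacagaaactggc
Trem2 has the PU.1 core at -40 and the AP-1 core at -9, counted from the start site, Itgax has the AP-1 core at -56 and no PU.1 core, and Vsig4 has the PU.1 core only. The RefSeq table held such a window for 23 members, and Cd4, Cd8b1, Klrd1, Cd79b, Ms4a1, Csf1r and C1qa were not among them. The PU.1 core was present in 13 of the 23 (56.5%) and in 23.1% of the 27025 genes with a window of the same length. The AP-1 core was present in 4 of the 23 (17.4%; Gzmb, Cd68, Itgax and Trem2) and in 6.87% of all genes, and TGTGGT, a RUNX core on either strand, in 7 (30.4%) and in 14.2%. Such a match describes the letters of the window and shows no binding.

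Total counts ran from 26214869 to 61954486 in liver, from 20352770 to 43202066 in kidney and from 41597623 to 155323865 in lung, and 3 counts corresponded to 0.0484 to 0.114, 0.0694 to 0.147 and 0.0193 to 0.0721 CPM, the unit of counts scaled to library size. The 30 members made up 0.023% to 0.168% of the counts of a library. Ccne1, the induced gene, stood between 65.7 and 896.7 CPM in the CCNE-TA libraries and between 1.04 and 6.02 CPM in the TA libraries. By Xist and the Y-linked Ddx3y, liver CCNE-TA 3, TA 2 and TA 3 came from males and the other 3 liver libraries from females, while kidney and lung each had 1 male library per genotype, both numbered 3. Number 2 of the TA group therefore does not mark 1 mouse in all 3 organs. Genes of other organs differed between libraries: the summed level of 10 listed liver parenchyma genes in lung was 64.7 to 306 CPM in CCNE-TA and 459.7 to 2420 CPM in TA, with the highest value in TA 3, and the digestive enzyme Cela2a of the pancreas reached 30.7 CPM in liver TA 1 and 10.5 CPM in TA 2, against 0.812 to 1.15 CPM elsewhere in liver.

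In the TA controls the 3 organs had different marker profiles. Levels are compared between genes as RPKM, the reads scaled to library size and to exon length. Liver was led by C1qb (111 ± 51.1 RPKM), C1qa (104 ± 45.9) and Clec4f (87.2 ± 28.7; SD, n = 3), kidney by C1qa (29.8 ± 9.83) and C1qb (25.7 ± 10.2), and lung by C1qa (30 ± 6.60), C1qb (28.1 ± 4.53) and Cd79a (16.6 ± 9.47). The 3 C1q genes encode the chains of the complement starter C1q and lie side by side on chromosome 4. Cd79a, which with Cd79b carries the signal of the B cell receptor, had 1.11 ± 0.167 RPKM in liver and 1.08 ± 0.301 in kidney, below every C1q gene there, while in lung the ranges of C1qc (13.4 ± 2.93) and Cd79a overlapped. The ranges of C1qa and C1qb over the libraries overlapped in each of the 3 organs.

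**Figure D1:**
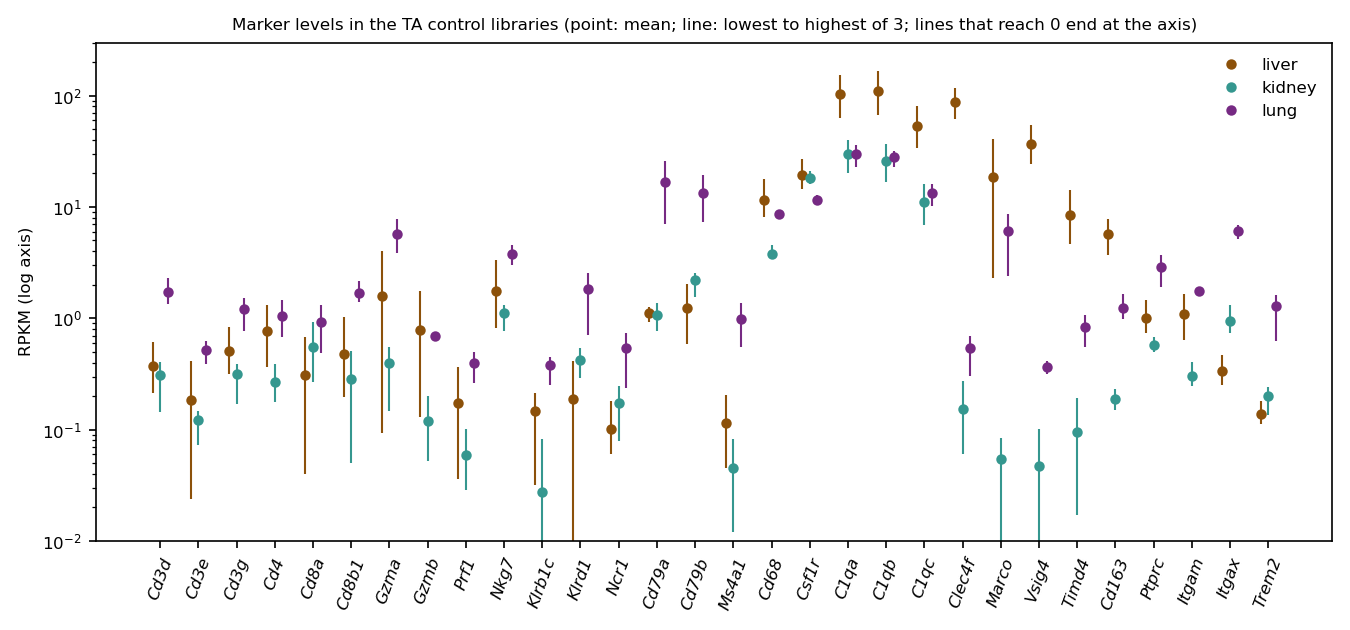
Level of each of the 30 marker genes in the TA libraries of liver, kidney and lung, in RPKM on a log axis; points are means and lines run from the lowest to the highest of 3 libraries. Clec4f, Vsig4 and Timd4 are highest in liver, and Cd79a, Itgax and Trem2 in lung.

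Set against kidney, 11 members were higher and 0 lower in TA liver (edgeR, adjusted p under 0.05, as for every call below unless another tool is named), where 28.6% of all genes were higher and 33.6% lower. They included all 5 resident macrophage members: Vsig4, a complement receptor of Kupffer cells, differed by 9.59 ± 0.52 on the log2 scale (SE, adjusted p = 5.4e-10), the galactose-binding lectin Clec4f by 9.18, the scavenger receptor Marco by 8.26, Timd4, a receptor for dying cells, by 6.50 and the haemoglobin scavenger receptor Cd163 by 4.92. Kidney counts of Vsig4 totalled 7 over the 3 TA libraries, so its ratio rests on few reads. Set against kidney, lung had 22 members higher and 0 lower (29.6% and 27.6% of all genes). Against liver, lung had 10 higher and 8 lower (35.8% and 32.6% of all genes). The 10 were Cd3d, Cd8b1, Klrd1, Ncr1, the 3 B cell members, Ptprc, Itgax and Trem2, with Itgax 4.14 ± 0.75 (adjusted p = 0.000157) and Cd79a 3.90 ± 0.58 (1.74e-05) higher on the log2 scale. The 8 were Csf1r, the 3 C1q genes, Clec4f, Vsig4, Timd4 and Cd163. With single libraries left out, the count for lung against kidney was 14 to 21, with 14 without kidney TA 1. For lung against liver it was 7 to 14 higher and 7 to 9 lower. Without liver TA 3, for example, Cd8b1, Ncr1, Ptprc and Csf1r were lost. Liver against kidney had 8 to 12 higher and 0 to 2 lower, with Cd79b and Cd8a lower without liver TA 1.

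In liver, 3 of 29 tested members were higher in CCNE-TA and 0 were lower, which is 13.7% and 14.8% for all tested genes; Ncr1 did not pass the filter on low counts. The 3 were Trem2, Itgax and Nkg7. The members' median log2 fold change (CCNE-TA minus TA) was 0.22, against 0.02 over all genes. That median was 0.05 without CCNE-TA 3, 0.62 without TA 1, -0.02 with length and GC offsets and -0.28 against TA 1 alone. In 6 members every CCNE-TA library lay above every TA library, and in 0 every one lay below (23.2% and 24.7% of all tested genes).

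Trem2 (chromosome 17, 48346401 to 48354147, plus strand of mm10) encodes a receptor for lipids and apolipoproteins on macrophages. Its level was 3.28, 1.45 and 6.17 CPM in CCNE-TA 1, 2 and 3 and 0.318, 0.513 and 0.341 CPM in TA 1, 2 and 3. CCNE-TA 3 was the highest and the groups did not overlap. The log2 fold change was 3.21 ± 0.57 (SE, adjusted p = 0.00804), and it stayed between 2.60 and 3.58 when single libraries were left out, with adjusted p up to 0.0391.

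Itgax (chromosome 7, 128129547 to 128150657, plus strand) had 4.98, 2.58 and 7.73 CPM in CCNE-TA and 1.29, 0.784 and 0.711 CPM in TA. As for Trem2, CCNE-TA 3 was the highest and CCNE-TA 2 the lowest of its group, and all 3 lay above the controls. The fold change was 2.44 ± 0.47 on the log2 scale (adjusted p = 0.00958) and 2.01 to 2.75 with single libraries left out, with adjusted p up to 0.0443. Against TA 1 alone, Trem2 was higher by 3.47 and Itgax by 1.95 on the log2 scale. That fit kept all 3 CCNE-TA libraries. TA 1 is female like CCNE-TA 1 and 2, but CCNE-TA 3, the highest for both genes, is male, so sex was not matched. With Xist as a covariate Trem2 and Itgax both passed (3.57 and 2.45, adjusted p = 0.00928 and 0.0193).

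Nkg7 (chromosome 7, 43437073 to 43438249, plus strand), a granule membrane protein of cytotoxic lymphocytes, had 2.18, 4.29 and 3.59 CPM in CCNE-TA and 1.74, 0.432 and 0.569 CPM in TA. The lowest CCNE-TA library lay just above TA 1. Its log2 fold change was 1.85 ± 0.56 (adjusted p = 0.0396). The call was lost in 5 of 6 fits that left out a library (log2 fold change 1.5 to 2.09, adjusted p 0.0653 to 0.131) and was kept without TA 1 (2.73, adjusted p = 0.0159). It was also lost with Xist as a covariate (1.62, 0.0611) and with a correction for transcript length and GC content (1.24, 0.135).

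**Figure D2:**
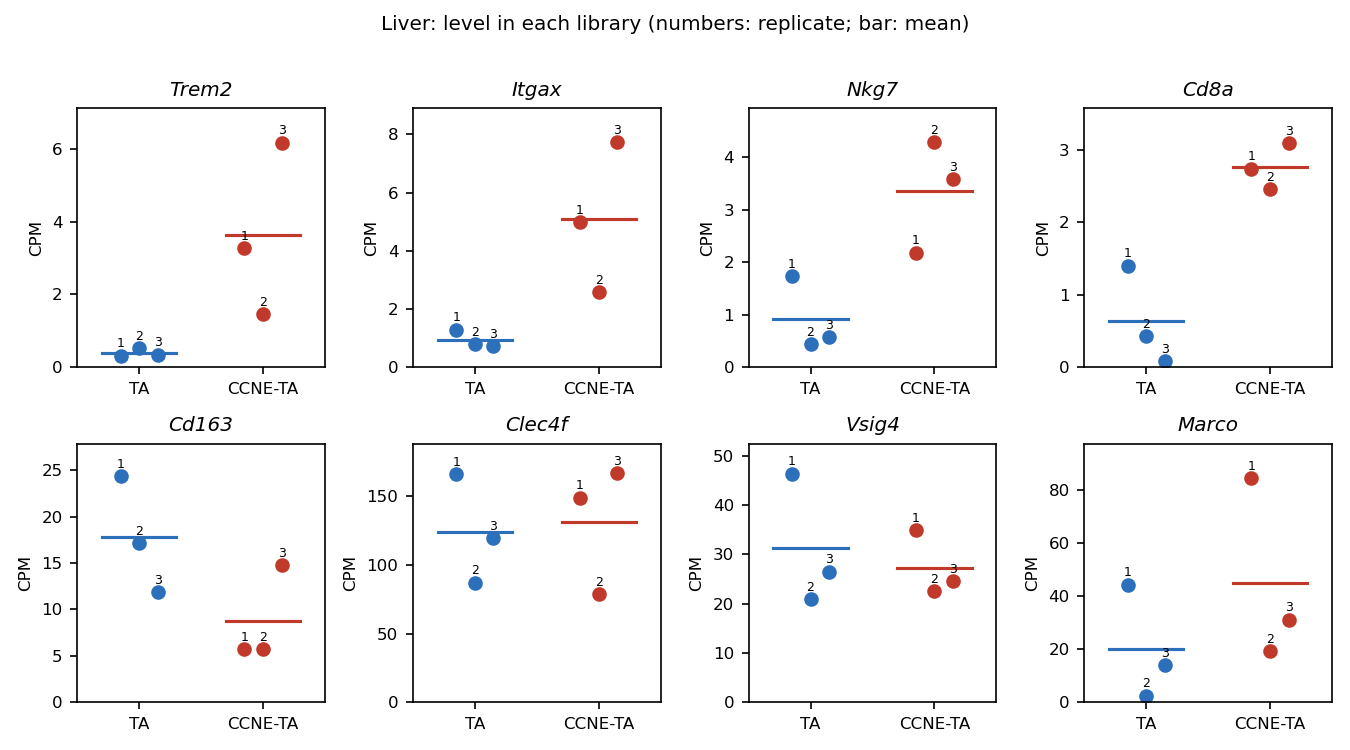
Level in CPM of 8 marker genes in each liver library, TA in blue and CCNE-TA in red, with replicate numbers; bars are group means. Trem2, Itgax, Nkg7 and Cd8a do not overlap between the genotypes, whereas Clec4f, Vsig4, Marco and Cd163 do.

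The other liver members did not pass. Cd8a had 2.74, 2.46 and 3.10 CPM in CCNE-TA and 1.4, 0.432 and 0.0853 CPM in TA. The CCNE-TA libraries were alike and the controls spread widely, with a log2 fold change of 2.06 ± 0.74 (adjusted p = 0.0686), and DESeq2 (adjusted p = 0.0119) and limma-voom (0.0371) called it. Klrd1, a chain of NK receptors (CD94), had 0.686, 0.328 and 1.01 CPM against 0.302, 0 and 0.114 CPM. These groups did not overlap either, at 74 and 23 counts (2.14 ± 0.91, adjusted p = 0.108). Cd3e had 1.22, 0.868 and 0.890 CPM in CCNE-TA and 0.955, 0.270 and 0.0569 CPM in TA (1.15 ± 0.78, 0.288). TA 1 lay within the CCNE-TA range, so the groups overlapped. Cd79a had 0.863, 0.797 and 2.27 CPM against 0.939, 0.784 and 1.08 CPM (0.48 ± 0.51, 0.498), with CCNE-TA 3 alone above the controls.

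Of the macrophage members in liver, 0 of 10 general and resident ones passed. Cd163 had 5.76, 5.75 and 14.8 CPM in CCNE-TA and 24.4, 17.1 and 11.9 CPM in TA. CCNE-TA 3 lay inside the control range, and the log2 fold change was -1.03 ± 0.42 (adjusted p = 0.1). Without CCNE-TA 3 it was -1.63 (0.0148), and DESeq2 on all libraries gave -1.03 with an adjusted p of 0.0461. Csf1r, the receptor of the macrophage growth factor CSF1, had 59.7, 26.1 and 40.9 CPM against 89.3, 47.7 and 56.0 CPM (-0.61 ± 0.34, 0.202), with the 2 groups overlapping. Marco spread from 19.2 to 84.5 CPM in CCNE-TA (84.5, 19.2 and 31.1) and from 2.54 to 44.3 CPM in TA (44.3, 2.54 and 14.1), a difference of 1.14 ± 1.12 (0.483). Clec4f, Vsig4 and Timd4 had log2 fold changes of 0.08 ± 0.33, -0.20 ± 0.31 and -0.04 ± 0.50, and C1qa, C1qb and C1qc of 0.22, -0.14 and 0.06. TA 1 was the highest library for 10 of the 29 members and TA 2 the lowest for 16.

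Levels were also set against Ptprc (CD45, on all leukocytes) in the same library, as a percentage of its RPKM. The size of a percentage depends on the exon lengths used, 18313 bases for Ptprc and 4946 for Trem2. The percentages therefore compare libraries for 1 gene and do not rank a gene against Ptprc. Trem2 was 86.2%, 86.0% and 134% of Ptprc in CCNE-TA and 7.75%, 24.6% and 14.9% in TA liver. Itgax was 135%, 157% and 173% in CCNE-TA and 32.3%, 38.7% and 31.9% in TA, so that the spread within each group was small beside the gap. Csf1r was 1345%, 1322% and 763% against 1861%, 1957% and 2091%. By this ratio 6 of 28 liver members lay above the controls in every CCNE-TA library (Cd3g, Cd8a, Itgax, Klrd1, Nkg7, Trem2; 11.5% of all genes) and 2 below (Cd163, Csf1r; 4.12%). An exact two-sided permutation test of 3 libraries against 3 cannot give a p below 0.1.

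Among the other lists in liver, 10 of 18 genes known from TREM2-expressing macrophages were higher and 1 was lower (median 1.51, against 0.02 over all genes). The summed level of these 18 genes overlapped between the genotypes, at 1614 to 3029 CPM in CCNE-TA and 2103 to 2605 CPM in TA. All list counts stand beside 13.7% of tested genes higher and 14.8% lower in liver. Spp1 (osteopontin) rose from 42.8 ± 2.03 to 255 ± 51.5 CPM (SD, n = 3 per group), Lpl (lipoprotein lipase) by 3.13 ± 0.48 and the macrophage elastase Mmp12 by 3.21 ± 0.55 on the log2 scale (adjusted p = 0.000865, 0.00567 and 0.00726). Spp1 and Lpl are also made by cells that are not macrophages. Of 30 other macrophage and monocyte genes, 3 were higher, among them the Fc receptor chain Fcer1g (1.36 ± 0.37, adjusted p = 0.029), and 2 were lower. The latter were Emr1, the macrophage antigen F4/80, which fell from 25.0 ± 13.1 to 6.27 ± 0.737 CPM (-2.0 ± 0.36, 0.00804), and the lysozyme Lyz2 (-1.30 ± 0.39, 0.041). Of 13 other Kupffer cell genes 1 was lower and 0 higher (median -0.27); it was Cdh5, which endothelium also makes. Alveolar macrophage genes had 4 of 14 higher and 1 lower, the lower one being the mannose receptor Mrc1. That list holds Itgax and shares Lpl and Atp6v0d2 with the TREM2-type list. The TREM2-type list also shares Tyrobp with the macrophage and monocyte list.

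The shares of all tested liver genes, 13.7% higher and 14.8% lower, are the background of these counts too. Other lymphocyte lists in liver had 2 of 21 T cell genes higher (Lat and Cd247, which pass on the T cell receptor signal; 1.44 and 1.61), 1 of 11 cytotoxic and NK genes higher (Ctsw, a granule protease, 2.37 ± 0.64, adjusted p = 0.0274) and 1 of 14 B cell and plasma cell genes lower (Bank1, -1.23). Dendritic cell genes had 2 of 16 higher, Clec9a (2.17) and Batf3 (2.0), and neutrophil genes 0 of 7. The median log2 fold change was 1.03 for T cell, 1.33 for cytotoxic and NK and 0.44 for B cell and plasma cell genes. It was 0.75 for dendritic cell and 0.69 for neutrophil genes, against 0.02 over all genes. Markers of other cells moved as well: 8 of 18 endothelial genes were lower (summed 264 to 343 CPM in CCNE-TA and 362 to 463 in TA), and 4 of 6 erythroid and platelet genes were higher. Counts in liver were 1 higher and 2 lower of 10 liver parenchyma genes, 3 higher of 8 lung parenchyma genes, 0 of 7 kidney parenchyma genes (summed 17.1 to 35.7 CPM in CCNE-TA and 0.378 to 18.6 in TA), 1 lower of 5 thymus genes, 2 higher of 4 lymph node genes, 0 of 2 pancreas genes and 0 of 5 fat genes. The kidney gene Kap had 22.8, 13.1 and 25.6 CPM in CCNE-TA liver and 13.8, 0 and 0 CPM in TA 1, 2 and 3. Slc34a1, another kidney gene, had 3.40, 1.36 and 3.96 CPM against 1.82, 0 and 0 CPM. In these genes TA 1 stood with the CCNE-TA livers, apart from TA 2 and TA 3. TA 2 and TA 3 were also the lower controls for Nkg7, Cd8a and Klrd1. The part of the listed cells and organs, and of this split, in the marker results was not tested.

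In kidney, 0 of 22 tested members passed in either direction, and 0 reached an unadjusted p under 0.05. Over all tested genes, edgeR called 0.0131% higher and 0% lower, and 1.44% and 0.682% reached that unadjusted p on each side. DESeq2 (0.178% of genes higher, 0.0285% lower) and limma-voom (0.0131%) also called 0 members. Gzmb, Prf1, Klrb1c, Ms4a1, Clec4f, Marco, Vsig4 and Timd4 did not pass the filter there. Trem2 was the 1 tested member with every CCNE-TA library above every control (2.88, 1.79 and 1.47 against 0.799, 1.4 and 1.34 CPM; 0.78 ± 0.44), and 0 lay below (3.04% and 2.68% of all genes).

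Kidney CCNE-TA 1 was the highest library for 18 of the 22 members. Cd4 had 9.54 CPM there and 1.1 and 0.544 CPM in CCNE-TA 2 and 3, against 0.844, 1.86 and 1.16 CPM in TA. Cd3d had 3.61, 0.549 and 0.608 CPM in CCNE-TA and 0.311, 0.867 and 0.805 CPM in TA, and Cd3g had 6.53, 0.607 and 0.833 against 0.666, 1.49 and 1.48 CPM. In each of these genes CCNE-TA 2 and 3 lay within or below the control range. The log2 fold changes of 1.49 ± 0.94, 1.22 ± 0.80 and 1.1 ± 0.85 became -0.65, -0.20 and -0.76 without CCNE-TA 1. Over all tested members the median went from 0.65 to -0.21, with 8 positive and 16 negative of 24, and that of the T cell members from 1.16 to -0.27.

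CCNE-TA 1 was also the highest kidney library for Gzma, Nkg7, Cd8b1 and Itgam, and for the last 3 CCNE-TA 3 lay above all controls as well. Gzma had 2.51, 0.318 and 0.576 CPM in CCNE-TA and 0.178, 0.651 and 0.582 CPM in TA (1.21 ± 0.83, and -0.10 without CCNE-TA 1), and Nkg7 had 5.89, 1.1 and 1.44 against 0.844, 1.42 and 1.39 CPM (1.18 ± 0.65, and 0.06 without it). Cd8b1 had 2.15, 0.578 and 1.03 against 0.0888, 0.506 and 0.895 CPM (1.31 ± 0.77, and 0.69 without CCNE-TA 1), with TA 1 the lowest. Itgam, the integrin CD11b of myeloid cells, had 7.81, 1.76 and 3.11 against 1.55, 2.41 and 1.48 CPM (1.20 ± 0.54, and 0.41 without CCNE-TA 1). Its exons share 68.7% of their bases with the same-strand gene Gm49368, so its counts are uncertain.

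Of the macrophage members in kidney, C1qa had 106.9, 40.2 and 45.8 CPM in CCNE-TA and 24.8, 48.6 and 36.8 CPM in TA (0.81 ± 0.39, and 0.23 without CCNE-TA 1), and Cd163 had 0.959, 2.17 and 1.09 against 1.51, 1.16 and 0.984 CPM (0.22 ± 0.47). Both overlapped between the genotypes. Cd79a was the member with the lowest fold change in kidney, at 1.64, 0.549 and 0.352 CPM in CCNE-TA and 1.33, 1.88 and 2.37 CPM in TA. CCNE-TA 1 was again the highest of its group and the only one within the control range, and the log2 fold change was -1.16 ± 0.61, with -2.03 to -0.79 over the fits that left out a library. As a percentage of Ptprc, Cd79a was 68.0%, 62.4% and 42.4% in CCNE-TA and 137%, 161% and 278% in TA, the 1 of 21 members below the controls (1.28% of all genes). C1qa was the 1 above (0.859%). Ptprc was itself highest in CCNE-TA 1, at 30.4 CPM against 10.4 to 14.7 CPM elsewhere in kidney. This lowers the ratio of genes that did not rise with it in that library. Other B cell and plasma cell genes had 0 of 16 called in kidney, where 0.0131% of all genes were called higher and 0% lower. At an edgeR unadjusted p under 0.05, 3 of the 16 were lower and 0 higher (0.682% and 1.44% of all genes). Fcer2a had the smallest p, with a log2 fold change of -2.69 ± 0.65 at group means of 0.135 and 0.905 CPM. The median of the list was -0.23.

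**Figure D3:**
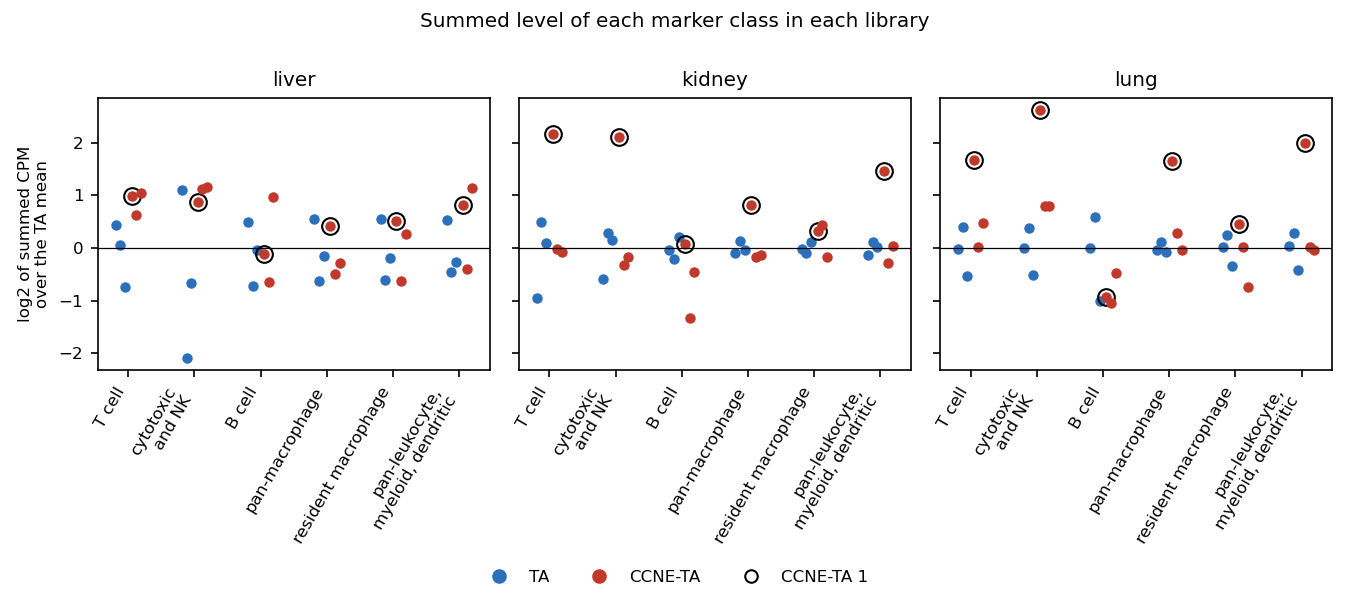
Summed CPM of each marker class in each library, as log2 of its ratio to the TA mean of the tissue, with TA in blue, CCNE-TA in red and CCNE-TA 1 ringed. In kidney and lung the ringed library lies above all others for T cell, cytotoxic and NK, pan-macrophage and leukocyte genes, and in lung all 3 CCNE-TA libraries lie above the controls for cytotoxic and NK genes.

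In lung, 0 of 30 members passed in either direction with edgeR (0.00594% of genes higher, 0% lower). At an unadjusted p under 0.05 there were 5 higher, all in the cytotoxic and NK class, and 2 lower, Clec4f and Vsig4 (1.07% and 2.58% of all genes). DESeq2 called Gzmb (adjusted p = 0.046) and 0 lower members (0.0899% and 1.01% of genes), and limma-voom called 0 (0% of genes). In 6 members every CCNE-TA library lay above every TA library, and in 2 every one lay below (3.3% and 4.59% of all genes). All 6 were cytotoxic and NK genes, out of 7 in that class.

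Gzmb had 14.5, 2.90 and 3.29 CPM in CCNE-TA lung and 1.41, 1.58 and 1.36 CPM in TA (2.25 ± 0.68). Gzma had 50.8, 15.4 and 15.8 against 7.78, 11.4 and 5.75 CPM (1.72 ± 0.55). CCNE-TA 1 stood far above, while CCNE-TA 2 and 3 were close to each other and above the 3 controls. Prf1 had 20.1, 2.21 and 2.31 against 0.999, 1.87 and 1.60 CPM (2.47 ± 0.95), and Nkg7 24.9, 7.71 and 9.07 against 4.98, 6.02 and 4.05 CPM (1.47 ± 0.49). Ncr1, the NK receptor NKp46, had 11.1, 2.26 and 2.02 against 1.42, 1.64 and 0.543 CPM (2.08 ± 0.81). In these genes the same order held, CCNE-TA 1 first and the controls last. Klrb1c (NK1.1) had 8.35, 2.62 and 1.93 against 1.87, 1.94 and 1.11 CPM (1.39 ± 0.61), where CCNE-TA 3 and TA 2 touched. It shares part of its exon sequence with Gm44511.

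Without lung CCNE-TA 1 all 7 cytotoxic and NK members stayed positive, and their median log2 fold change went from 1.72 to 0.74, with Gzmb at 1.09, Gzma at 0.91 and Prf1 at 0.60. Over all 30 members the median went from 0.93 to 0.14, with 19 positive and 11 negative, against -0.01 over all genes. CCNE-TA 1 was the highest library for 24 of the 30 members and TA 3 the lowest for 20. The level of Ptprc was 257 CPM in CCNE-TA 1, against 52.2 to 99.5 CPM elsewhere in lung. The summed level of listed neutrophil genes had the same top library, at 230 to 1136 CPM in CCNE-TA and 296 to 406 CPM in TA. Its part in the result was not tested.

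**Figure D4:**
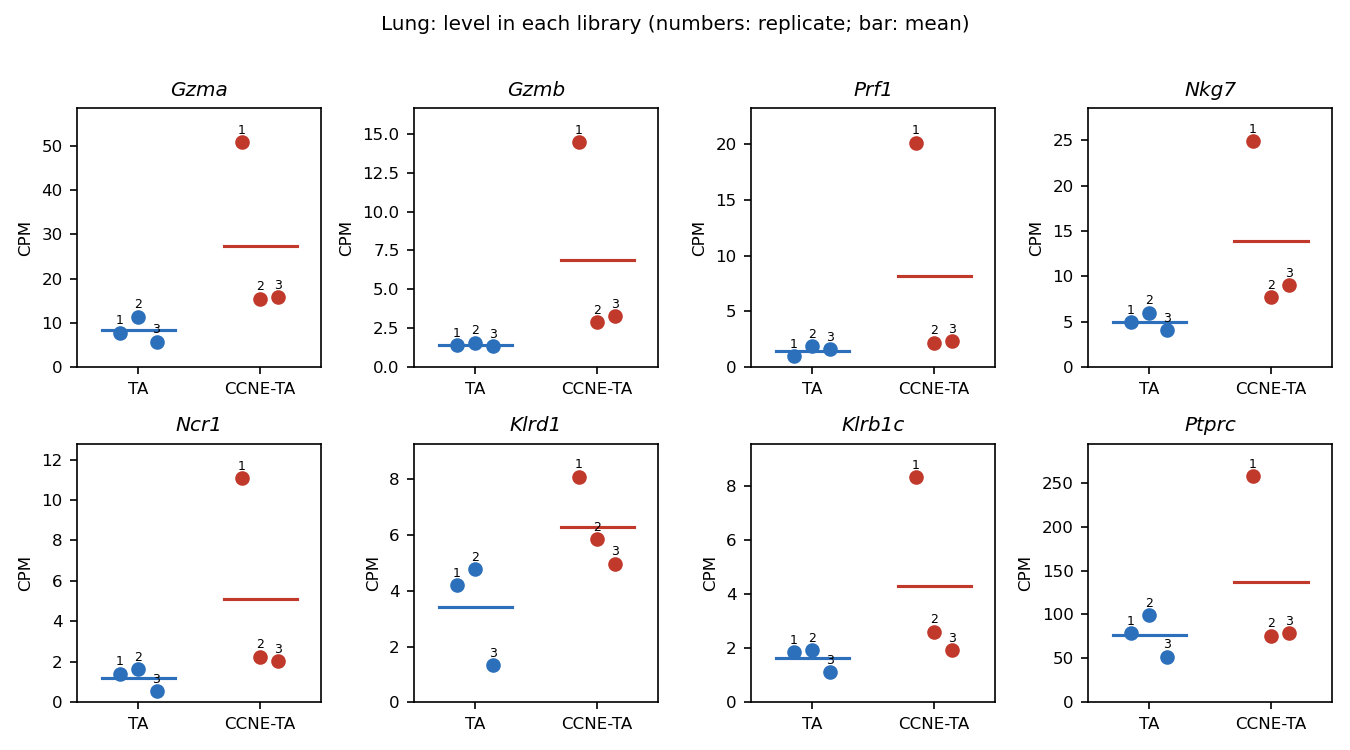
Level in CPM of the 7 cytotoxic and NK members and of Ptprc in each lung library, TA in blue and CCNE-TA in red, with replicate numbers; bars are group means. CCNE-TA 1 is the highest in all 8 panels, and CCNE-TA 2 and 3 lie above all controls for 6 of the 7 cytotoxic and NK genes but not for Ptprc.

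Set against Ptprc, the cytotoxic and NK members of lung differed in shape. Gzma was 359.7%, 371% and 364% of Ptprc in CCNE-TA 1, 2 and 3 and 179%, 209% and 200.4% in TA. The 3 libraries of each genotype were close together, and the gap between the genotypes was much wider than the spread within them. Nkg7 was 194%, 204% and 230.1% against 126%, 121% and 155%. Gzmb was 71.7%, 48.8% and 53.1% against 22.8%, 20.2% and 33.2%. For Prf1 CCNE-TA 1 remained far apart (55.5%, 20.7% and 20.8% against 8.95%, 13.3% and 21.8%) and the groups overlapped. Klrd1 overlapped too, with CCNE-TA 1 the lowest of its group (44.9%, 110.1% and 89.9% against 75.8%, 68.4% and 36.5%). By this ratio 5 of 29 members (Gzma, Gzmb, Klrb1c, Ncr1, Nkg7) lay above the controls in every CCNE-TA library, as did 0.386% of all genes. A further 4 (Cd79b, Clec4f, Ms4a1, Vsig4) lay below, as did 5.7% of all genes. Ptprc was itself highest in CCNE-TA 1, at 257 CPM, which lowers the ratio of genes that did not rise with it. Without the ratio 3.3% of all genes lay above, so 0.386% is not a like background for leukocyte genes.

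All 6 T cell members and all 5 general macrophage members of lung were highest in CCNE-TA 1, whereas Clec4f, Marco and Vsig4 were highest in a TA library. Cd3d had 14.3, 5.0 and 7.57 CPM in CCNE-TA and 4.17, 6.04 and 3.60 CPM in TA (0.96 ± 0.43, and 0.45 without CCNE-TA 1), and Cd8a had 13.7, 5.59 and 10.4 against 5.21, 6.93 and 2.62 CPM (1.0 ± 0.46). Cd68, a lysosomal protein of macrophages, had 82.2, 18.6 and 14.4 against 14.9, 16.9 and 16.3 CPM (1.26 ± 0.66, and 0.04 without CCNE-TA 1). CCNE-TA 1 was above all controls in these 3 genes and the other CCNE-TA libraries were not always. C1qb had 172, 61.1 and 37.0 against 46.9, 50.0 and 37.0 CPM (1.01 ± 0.54, and 0.13 without CCNE-TA 1), and C1qc 136, 50.1 and 37.1 against 39.6, 44.8 and 29.2 CPM (0.97 ± 0.49, and 0.20 without it). Itgam had 83.9, 13.4 and 19.7 against 12.4, 13.6 and 12.8 CPM (1.59 ± 0.68, and 0.36 without it). Itgax had 206, 44.3 and 34.0 against 42.8, 48.1 and 36.7 CPM, and its log2 fold change of 1.16 ± 0.68 became -0.12 without CCNE-TA 1. Trem2, at 18.5, 10.7 and 5.02 against 11.6, 11.7 and 4.57 CPM, overlapped between the genotypes (0.29 ± 0.55).

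B cell members of lung were lower, without passing: Cd79a had 15.3, 14.5 and 23.5 CPM in CCNE-TA and 35.4, 55.1 and 15.3 CPM in TA (-0.99 ± 0.46), Cd79b had a log2 fold change of -0.71 ± 0.36 and Ms4a1 (CD20) of -0.43 ± 0.36. TA 3 lay within the CCNE-TA range of Cd79a. Clec4f had 0.934, 0.345 and 0.184 CPM in CCNE-TA and 1.09, 2.32 and 2.52 CPM in TA (-1.99 ± 0.68, unadjusted p = 0.0241, adjusted p = 1). Vsig4 differed in the same direction (-0.78 ± 0.32). Both are Kupffer cell genes, and the liver parenchyma genes listed above were also at their lowest in the CCNE-TA lungs, with 0 of 9 called and 8 at an unadjusted p under 0.05. Their part in these differences was not tested.

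The other lists had 0 genes called in kidney and in lung with edgeR. In lung the medians were 1.41 for 20 other cytotoxic and NK genes (Ccl5 1.49, Gzmk 1.49, Ifng 2.80, Klrk1 1.37), 0.78 for 26 T cell genes, -0.22 for 21 B cell and plasma cell genes, 0.98 for 30 macrophage and monocyte genes, 0.12 for Kupffer cell genes, 0.15 for TREM2-type, 0.06 for alveolar macrophage, 0.71 for dendritic cell, 2.07 for neutrophil, -0.09 for thymus, 0.63 for lymph node, 0.02 for endothelial, 0.59 for erythroid and platelet, -2.86 for liver parenchyma, 0.16 for kidney parenchyma, -0.05 for lung parenchyma and -0.86 for fat genes. In kidney they were 0.65 for T cell, 1.25 for cytotoxic and NK, -0.23 for B cell and plasma cell, 0.67 for macrophage and monocyte, 0.14 for Kupffer cell, 0.07 for TREM2-type, 0.14 for alveolar macrophage, 0.42 for dendritic cell, 0.72 for neutrophil, -0.22 for thymus, 0.38 for lymph node, 0.04 for endothelial, 0.05 for erythroid and platelet, -0.19 for liver parenchyma, -0.23 for kidney parenchyma, -1.40 for lung parenchyma and 0.29 for fat genes. No pancreas gene passed the filter in kidney or lung. In both organs CCNE-TA 1 had the highest summed level for the T cell, cytotoxic and NK, and macrophage and monocyte lists. The same held for the TREM2-type, dendritic cell, neutrophil and lymph node lists. The B cell and plasma cell and the Kupffer cell lists were highest in a TA library. In lung the Kupffer cell sum was 1559 CPM in that library, TA 3, and 988 CPM of it came from Cdh5. This gene is also in the endothelial list, so the lung sum does not describe Kupffer cells alone. In kidney the cytotoxic and NK sum was 13.99 to 93.7 CPM in CCNE-TA and 12.21 to 14.53 CPM in TA. The part of CCNE-TA 1 in the list medians was not tested.

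**Figure D5:**
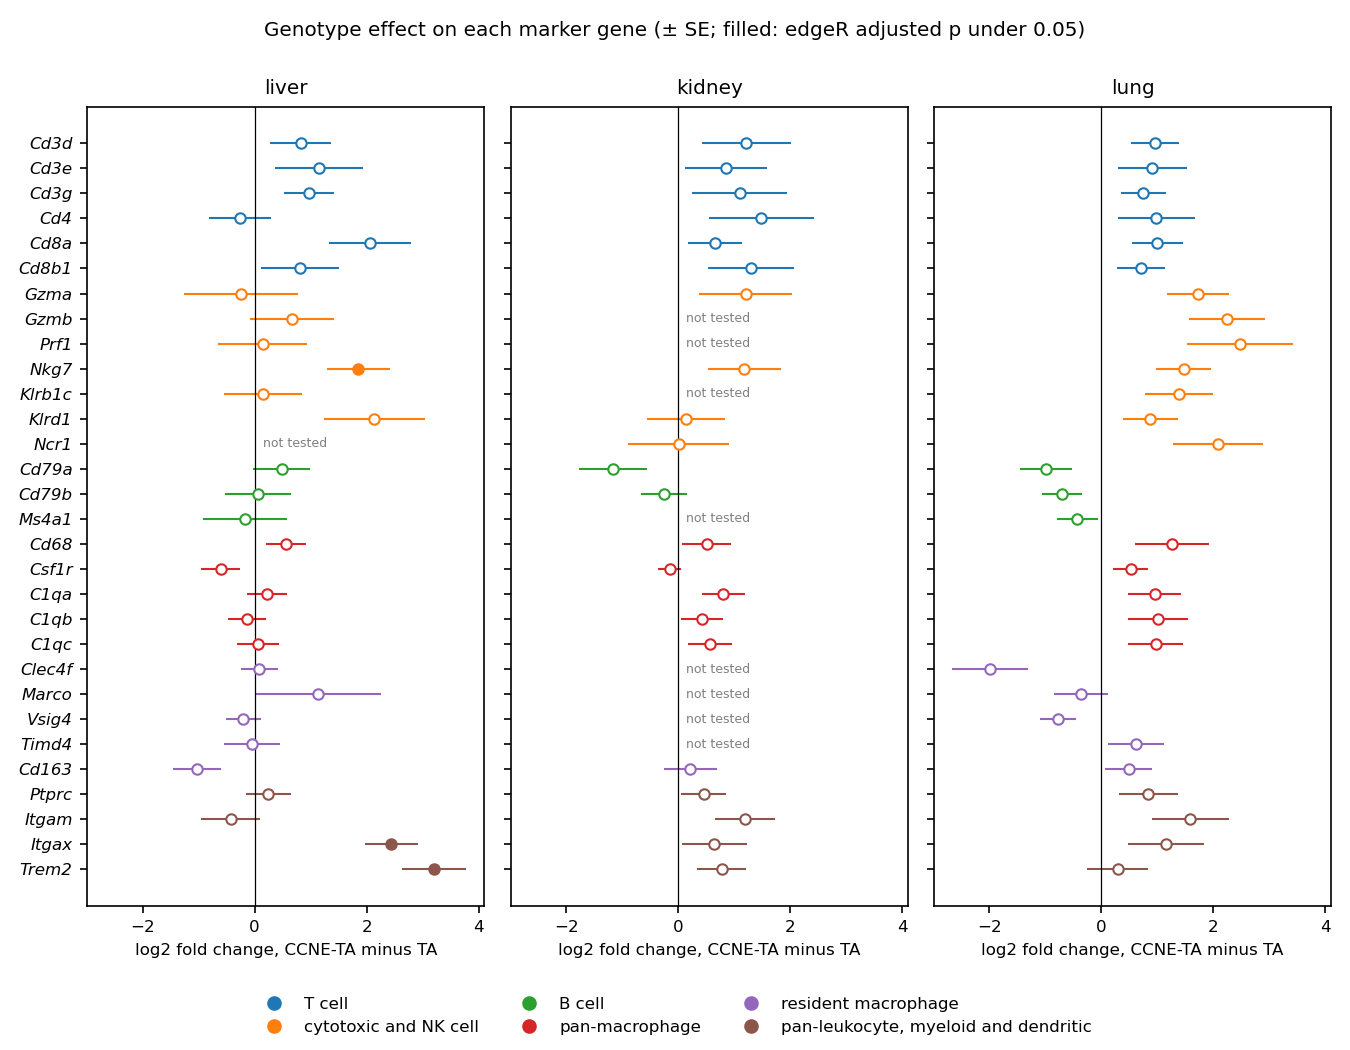
Log2 fold change (CCNE-TA minus TA) ± SE of each marker gene in liver, kidney and lung, coloured by class; filled points have an edgeR adjusted p under 0.05. The filled points are Trem2, Itgax and Nkg7 in liver, and members that did not pass the count filter are marked as not tested.

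The genotype effects of the tissues were compared as interaction terms over all 18 libraries. Between liver and lung 1 member differed, Trem2, whose log2 fold change was larger in liver by 2.89 ± 0.78 (adjusted p = 0.0268; 12.7% of all genes differed). The call was lost without liver CCNE-TA 3, TA 1 or TA 3 and without lung CCNE-TA 2, TA 1 or TA 2, where 0 members or Cd163 alone passed. Between liver and kidney 0 members differed with edgeR, 1 had an unadjusted p under 0.05, and DESeq2 called 1, Trem2 (9.52% of all genes by edgeR); Trem2 was at 2.42 ± 0.79 with an adjusted p of 0.0627. For Itgax the differences were 1.77 ± 0.96 against kidney (0.24) and 1.24 ± 0.94 against lung (0.392). For the 7 cytotoxic and NK members, liver minus lung ran from -2.34 ± 1.20 for Prf1 (0.196) to 1.25 ± 1.1 for Klrd1 (0.466), with Nkg7 also positive and the rest negative. Between kidney and lung 0 members differed by edgeR or DESeq2 and 0 had an unadjusted p under 0.05 (0.00583% of all genes).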

How the data were processed

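Whole liver, kidney and lung of CCNE-TA and TA mice were sequenced in 18 libraries (TruSeq kit version 2, 100 to 200 ng RNA, unstranded). The authors deposited raw read counts per gene symbol. Per the submitters' processing notes they used TopHat2 2.0.14, Bowtie2 2.2.6, featureCounts 1.4.6 and build mm10. The annotation and the handling of multiply aligned reads are not given in the sources used here. The share of even counts was 64.2% to 71.2% among counts from 1 to 20, so counts are not independent molecules, and floors of 3 counts cover counting error only.

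The members, their 6 classes and the 18 other lists were chosen with earlier results of these data known, and the ratio to Ptprc was added after values had been seen. Each tissue was fitted with edgeR 4.0.16 (R 4.3.3; filterByExpr, TMM, robust quasi-likelihood F test), with Benjamini-Hochberg adjustment over all tested genes and a threshold of 0.05. Differences between tissues came from 1 fit of all 18 libraries. SE is the fold change over the root of F. CPM use TMM factors within a tissue, and RPKM use factors over all libraries and the union of exons in GENCODE M21 (98.4% of symbols). Values per library were given for members that passed, differed by at least 1 on the log2 scale or had the smallest p of their class; Trem2 in kidney and lung was added after its values had been seen. Fold changes were tested on simulated data with known changes. Alternatives were DESeq2 1.42.0, limma-voom (limma 3.58.1), other scalings, no filter, 1 fit for all tissues, Xist as a covariate, length and GC offsets, the replicate number as a block, and leaving out each library. Same-numbered kidney libraries deviated together (r of 0.31, 0.49 and 0.34 across genes), which is seen in the data, while the labels state no pairing. Number 3 was the male library of both kidney groups, and the part of sex in this was not tested. In liver the correlations were 0.20, 0.00 and 0.08.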

Additional observations from a re-analysis of the deposited data

Results flagged for a closer look

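The genotype effect on Trem2 differed between liver and lung, with a log2 fold change larger by 2.89 in liver (SE 0.78, edgeR interaction test, adjusted p = 0.0268). All 3 CCNE-TA livers lay above all TA livers, whereas the lung groups overlapped. The call was lost when any of 6 single libraries was left out, as given above.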

How the results depend on the processing

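Trem2 and Itgax in liver kept their direction and their call under all alternatives run on all 6 liver libraries and without any single one; liver TA 1 as the only control, chosen after the data had been seen, gave 0 called members, and with 1 control the lone sample is assumed to vary like the other group. The count of liver members called was 5 with DESeq2 (also Cd8a, and Cd163 lower), 5 with the replicate block (also Cd8a and Marco) and 2 to 4 with single libraries left out. Upper quartile scaling moved the median of all liver genes from 0.02 to 0.21. In lung DESeq2 called 1. For liver minus kidney the count was 1 with DESeq2 and 0 to 1 with libraries left out (Cd79a without kidney CCNE-TA 1, Trem2 without liver CCNE-TA 2). For liver minus lung it was 2 with DESeq2, 2 with upper quartile scaling, 4 with the replicate block over tissues and 0 to 2 with libraries left out. TA lung minus kidney gave 14 to 21. The replicate block called 0 members in kidney, where same-numbered libraries deviated together though the labels state no pairing. It called 0 in lung, where same-numbered libraries had r of -0.48, -0.10 and -0.59. The block changed no other call in these 2 tissues.

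Of the members given by library, the sign turned in liver for Cd79a (-0.02 with length and GC offsets, -0.17 to 0.73 with libraries left out). Without single liver libraries it also turned for Cd4, Gzma (-0.79 to 1.97), Prf1, Klrb1c, Cd79b, Ms4a1, the 3 C1q genes, Clec4f, Vsig4, Timd4 and Ptprc, none of which was called. In kidney, leaving out libraries gave -0.20 to 1.63 for Cd3d, -0.76 to 1.58 for Cd3g, -0.65 to 2.01 for Cd4, -0.10 to 1.66 for Gzma and -0.24 to 0.43 for Cd163. Without both kidney CCNE-TA 1 and TA 1, an alternative chosen after the data had been seen, Cd3d was at -0.53, Cd3g at -1.04, Cd4 at -0.88, Gzma at -0.46 and Nkg7 at -0.14. Itgax in lung ran from -0.12 to 1.56, and was -0.21 without CCNE-TA 1 and TA 3, also chosen later. Other members whose sign turned without a single library were Cd3e, Klrd1, Ncr1, Cd79b, Cd68, C1qb, Ptprc and Itgax in kidney and Cd3e, Cd4, Timd4 and Trem2 in lung. The cause was not tested. With 3 libraries a group, members at a few counts per library (Klrd1 in liver) have wide errors.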

Other observations

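The RPKM ratio of C1qa to C1qb, neighbours on chromosome 4 whose products join in 1 protein, was 1.26, 1.09 and 1.25 in CCNE-TA liver and 0.92, 0.94 and 0.97 in TA liver. In kidney it was 1.55, 1.31 and 1.58 against 1.18, 1.08 and 1.28. In both tissues all CCNE-TA libraries lay above all controls. The share of gene pairs that separate in this way was not computed. By level, 23.2% of single genes in liver and 3.04% in kidney did so. In lung the ratios were 0.96, 1.12 and 1.19 against 1.05, 1.14 and 1.0 and overlapped. The ratio of C1qc to C1qb was 0.60, 0.51 and 0.51 against 0.48, 0.51 and 0.46 in liver, where the groups met. In kidney it was 0.48, 0.44 and 0.48 against 0.41, 0.43 and 0.43.

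The RPKM ratio of Cd8a to Cd4 was 1.66, 3.64 and 1.78 in CCNE-TA liver. It was 1.84, 0.16 and 0.06 in TA 1, 2 and 3. Cd8a stood at 0.432 CPM in TA 2 and at 0.0853 CPM in TA 3. In these libraries 3 counts correspond to 0.0749 and 0.0778 CPM, so both ratios rest on few reads, that of TA 3 above all. TA 2 and TA 3 are male by Xist and Ddx3y, and so is CCNE-TA 3, at 1.78. The male kidney libraries had 5.80 (CCNE-TA) and 1.96 (TA), and the male lung libraries 2.07 and 0.72.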
